A study of Mus musculus with 12 samples.

Results

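Complex I (NADH:ubiquinone oxidoreductase) was followed through its nuclear genes in interscapular brown adipose tissue (BAT) of mice with and without Txnip, the gene of thioredoxin-interacting protein. Every gene of the expression table whose symbol begins with Nduf was taken, which gave 48 of 25124 genes, of which 40 carry subunit names and 8 carry the Ndufaf name of assembly factors. The 12 RNA-seq libraries came from male mice at 10 weeks of age, 3 in each of 4 groups. WT mice held at 23 °C (RT) formed RT WT and Txnip-/- mice held at 23 °C formed RT Txnip-/-, while WT and Txnip-/- mice kept for 1 week at 30 °C (thermoneutrality, TN) formed TN WT and TN Txnip-/-. The Txnip-/- mice lack the gene in the whole body and were kept on a C57B/6J background, so that no difference below is limited to a loss of Txnip in adipocytes. Values are TPM, a read measure divided by transcript length and by the size of the library, so that levels can be compared between genes.

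Complex I takes electrons from NADH, passes them through a flavin and a chain of iron-sulfur clusters to ubiquinone, and pumps protons across the inner mitochondrial membrane. Its N module oxidizes NADH, its Q module reduces ubiquinone, and its proximal and distal membrane arms move protons. Core subunits carry the catalysis and accessory subunits surround them, while assembly factors join the modules and are absent from the finished enzyme. Brown adipocytes are packed with mitochondria, and their respiratory chain works at a high rate when uncoupling protein 1 (Ucp1) dissipates the proton gradient as heat. The core subunits coded by mitochondrial DNA, Ndufb1 and the non-Nduf factor Coa1 were not analysed here.

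The promoters of 4 members are shown. Ndufv1 and Ndufaf4 are the genes called between genotypes below, and Ndufb6 and Ndufs8 stand as examples of subunits among the 7 members that fell at TN in Txnip-/-, chosen after their values were seen. Each holds 250 bases before and 50 bases after the annotated start, from RefSeq on GRCm38.p6, the mm10 build of the files, and is written 5′ to 3′ on the strand of the gene. Capitals mark matches on either strand to any of 5 motifs, which are GCGCANGCG (the core of the NRF-1 motif), CCGGAAG (ETS factors such as GABP), ATGGCGGC (YY1), AAGGTCA (estrogen-related receptors) and GGGCGG (GC box). The positions are chr19:4012706-4013005 on the minus strand for Ndufv1, chr4:24897833-24898132 on the plus strand for Ndufaf4, chr4:40279372-40279671 on the minus strand for Ndufb6 and chr19:3912725-3913024 on the minus strand for Ndufs8.
Ndufv1: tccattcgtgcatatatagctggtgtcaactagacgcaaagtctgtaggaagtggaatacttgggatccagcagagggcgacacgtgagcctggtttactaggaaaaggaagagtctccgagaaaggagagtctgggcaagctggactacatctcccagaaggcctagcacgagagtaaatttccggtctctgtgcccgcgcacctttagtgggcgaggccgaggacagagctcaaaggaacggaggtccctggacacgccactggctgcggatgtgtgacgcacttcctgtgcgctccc
Ndufaf4: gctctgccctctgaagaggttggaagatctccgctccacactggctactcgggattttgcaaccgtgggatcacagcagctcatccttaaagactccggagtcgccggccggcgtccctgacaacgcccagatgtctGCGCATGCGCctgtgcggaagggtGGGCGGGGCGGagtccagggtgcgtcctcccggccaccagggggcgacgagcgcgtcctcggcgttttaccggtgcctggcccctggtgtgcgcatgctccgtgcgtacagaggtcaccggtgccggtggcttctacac
Ndufb6: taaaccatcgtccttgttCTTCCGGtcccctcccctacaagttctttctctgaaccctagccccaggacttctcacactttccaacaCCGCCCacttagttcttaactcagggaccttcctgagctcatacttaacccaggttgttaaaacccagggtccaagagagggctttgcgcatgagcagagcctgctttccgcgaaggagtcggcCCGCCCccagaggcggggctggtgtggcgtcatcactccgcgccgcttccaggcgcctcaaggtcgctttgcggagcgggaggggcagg
Ndufs8: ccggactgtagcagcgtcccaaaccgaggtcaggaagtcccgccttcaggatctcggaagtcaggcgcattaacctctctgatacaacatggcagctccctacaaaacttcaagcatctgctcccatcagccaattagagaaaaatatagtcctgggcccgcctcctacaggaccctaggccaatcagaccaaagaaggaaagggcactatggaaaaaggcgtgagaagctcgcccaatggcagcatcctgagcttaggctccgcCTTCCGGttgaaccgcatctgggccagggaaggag

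These letters were not shared by the 4 genes. The Ndufv1 window held no match to any of the 5 motifs. The Ndufaf4 window held an NRF-1 core that matched on both strands, followed by a pair of GC boxes, the Ndufb6 window held an ETS motif and 2 GC boxes, and the Ndufs8 window held a single ETS motif. Of the 48 members, 40 matched the promoter table, with 42 promoters in all. The core of NRF-1, a factor known for its targets among respiratory chain genes, stood in 11 of the 42 (26.2%), against 6.25% of the 32851 promoters of the table. The YY1 motif stood in 8 (19.0%, against 2.24%) and the ETS motif in 6 (14.3%, against 8.86%). The AAGGTCA motif stood in 3 (7.1%, against 4.72%) and the GC box in 22 (52.4%, against 35.7%). Matches of different motifs shared bases in 1 member promoter. The member promoters had a median GC content of 59.3%, against 52.7% over the table, and these shares are descriptions that are not adjusted for it.

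The depth per library was between 29.93 M and 47.44 M reads, and libraries of the same group had a correlation across genes of at least 0.9854. Txnip itself was at 29.0 ± 5.59 TPM in RT Txnip-/- against 613 ± 70.8 in RT WT, and at 11.98 ± 2.12 in TN Txnip-/- against 1131 ± 92.7 in TN WT (SD, n = 3). The libraries did not overlap, and the exact two-sided permutation p was 0.1 at each temperature, the smallest that 3 against 3 libraries can give. Markers of brown adipocytes, Ucp1 among them, were present in every library. Their sum over 9 genes was 11347 to 11961 TPM for WT and 8538 to 10764 for Txnip-/- at RT, and 6697 to 7593 for WT and 3694 to 4310 for Txnip-/- at TN. Markers of macrophages and fibroblasts were lowest where these were highest. Over 8 macrophage markers the sum was 49.2 to 54.2 TPM for WT and 83.6 to 148 for Txnip-/- at RT, and 113 to 204 and 333 to 456 at TN. Over 6 fibroblast markers it was 203 to 258 and 253 to 308 at RT, and 345 to 470 and 825 to 833 at TN. The defining markers Lyz2, Csf1r, Col1a1 and Pdgfra were above 0 in all 12 libraries. Over 8 lymphocyte markers the sum was at most 18.2 TPM in the other groups and 35.8 to 39.6 in TN Txnip-/-, while the ranges of 6 endothelial markers overlapped between the genotypes at each temperature, as did those of 7 general adipocyte markers. Over 8 skeletal muscle markers it was 17.99 to 43.7 TPM in RT Txnip-/-, above all other libraries (at most 14.6). In bulk tissue, fewer cells of a type and less RNA per cell cannot be told apart. Nothing names each library as a different mouse beyond its sample label, and p-values measure the spread between these libraries.

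Most subunit genes lay far above the assembly factors. Over all 12 libraries, Ndufa4 was highest at a mean of 2462 TPM, followed by Ndufb8 at 1611 and Ndufb9 at 1396, which are accessory subunits of the distal membrane arm. Ndufa4, first described in complex I, is now known as a subunit of cytochrome c oxidase. The 38 subunit-named genes that passed the filter, a mean of at least 1 TPM in the libraries compared, had a median of 522 TPM, and 35 of them were at or above 100 TPM. The exceptions were Ndufb4 at 59.2 and Ndufa11 at 57.6 TPM, which are accessory membrane subunits, and Ndufa4l2 at 14.1 TPM, a paralog of Ndufa4 known for its induction by hypoxia. The 8 assembly factors lay between 16.4 TPM (Ndufaf5) and 54.9 TPM (Ndufaf8), with a median of 27.8. The gene copies Ndufa11b (mean 0.527 TPM) and Ndufb4c (mean 0.0675 TPM) did not pass the filter, and reads could be split between them and Ndufa11 and Ndufb4, so that their levels are uncertain.

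**Figure D1:**
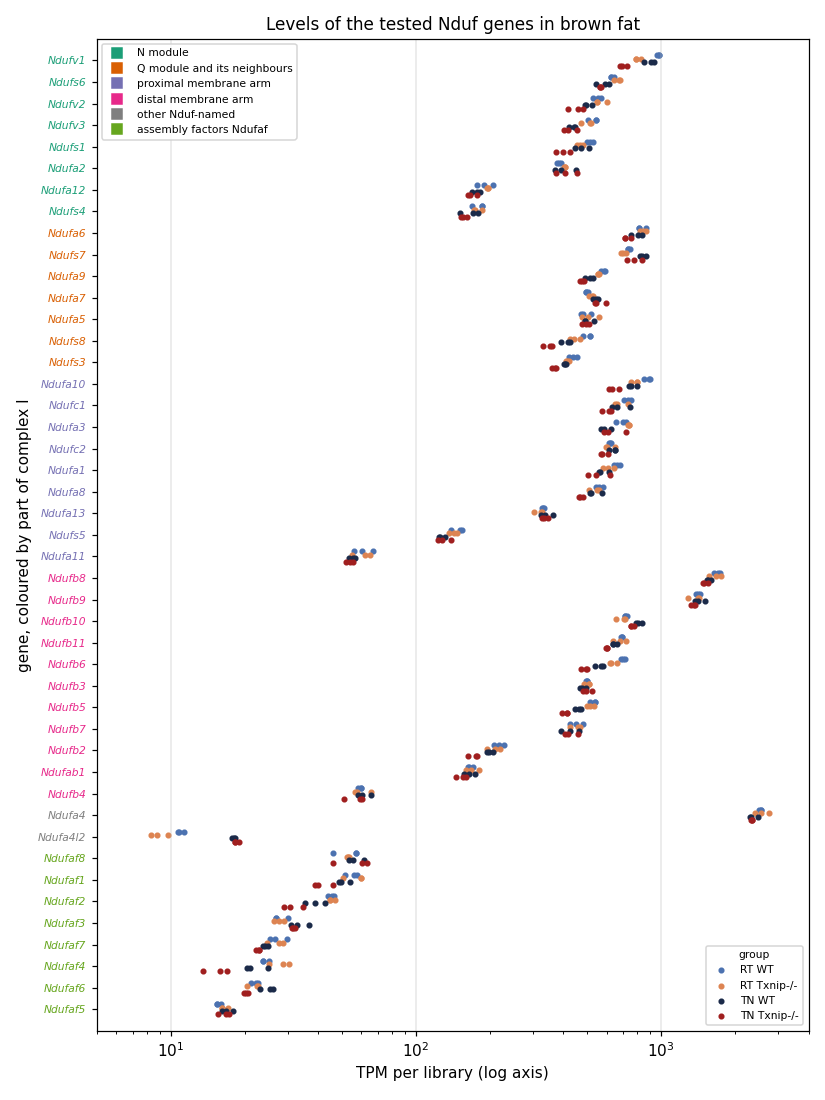
TPM of 45 of the 46 tested Nduf genes in each of the 12 libraries on a log axis, with 3 points per group and gene names coloured by part of complex I. The 8 assembly factors lie between 13.5 and 63.4 TPM, and most subunits lie at or above 100 TPM.

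Libraries of a group differed little in these genes. The within-group SD on the scale log2(TPM + 1) had a median of 0.0644 over the 46 tested members, with a range from 0.0335 to 0.159. The summed level of all members at RT was 23810 ± 475 TPM for WT and 23060 ± 682 for Txnip-/-, and at TN 22418 ± 540 for WT and 20998 ± 291 for Txnip-/- (SD, n = 3). The TN Txnip-/- libraries, at 20805 to 21333 TPM, all lay below the lowest TN WT library at 21889, while the ranges of RT WT and RT Txnip-/- overlapped. The 8 assembly factors alone summed to 271 ± 6.53 TPM for WT and 276 ± 14.0 for Txnip-/- at RT, and to 268 ± 8.36 and 236 ± 1.92 at TN, and only TN Txnip-/- lay apart from the other groups.

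The comparison of the genotypes at RT asked what the loss of Txnip does to complex I transcripts at ordinary housing temperature. None of the 46 tested members was called, where a call needs a log2 fold change above 0.32 or below -0.32, the fold limits of the study, and an adjusted p under 0.05 in limma on log2(TPM + 1), while 1.49% of all 11980 tested genes were called. Without the fold limit Ndufv1 alone passed, where 0.776% of all genes were lower, and 8 members had an unadjusted p under 0.05, as did 16% of all genes. Their log2 fold changes of Txnip-/- over WT had a median of -0.02, against 0.03 over all genes, and 30 of 46 were below 0, against 40.8% of all genes. With 1 library left out the median was between -0.06 (without RT Txnip-/- replicate 2, 37 of 46 below 0) and -0.01 (without RT Txnip-/- replicate 1, 25 of 46), it was -0.05 without RT WT replicate 2, and with the authors' log2 values it was -0.05 with 39 of 46 below 0. The 95% interval lay within the fold limits for 42 of the 46. The sums of muscle and macrophage markers given above were higher in RT Txnip-/- than in RT WT with no overlap, as was that of lymphocyte markers (7.62 to 10.2 against 3.90 to 5.62 TPM). Of the lymphocyte genes tested, Jchain (log2 0.95) and Ptprc (0.92) were called higher, and Cd3e (0.34) and Cd79a (-0.32) were not called. The sum of brown adipocyte markers was lower with no overlap. Of its genes, Ppargc1a (0.38) and Prdm16 (0.35) were above 0 (adjusted p = 0.708 and 0.732 in limma) and the others below. The part of all these markers in the values of the Nduf genes was not tested.

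Ndufv1, the N-module core subunit that binds the flavin and accepts electrons from NADH, was the lowest of these at RT. It measured 982, 960 and 985.5 TPM in the RT WT libraries and 793, 791 and 826 TPM in the RT Txnip-/- libraries. Every knockout library was below every WT library, with a fold change of 0.823 (log2 -0.28, SE 0.046, adjusted p = 0.0404), which misses the fold limit. Leaving out any of the 6 libraries took its adjusted p to between 0.074 and 0.14, and it was 0.108 with the replicate block, 0.105 with no filter on low values and 0.0686 with the authors' log2 values. Of other core subunits, the log2 fold changes were -0.13 for Ndufs1, which carries iron-sulfur clusters of the N module, -0.07 for Ndufs7, whose iron-sulfur cluster hands electrons to ubiquinone, and -0.18 for Ndufs8, which carries iron-sulfur clusters that lead to it. Ndufs3, a scaffold of the Q module, was at -0.08 and Ndufv2, an iron-sulfur subunit beside Ndufv1, at 0.04, and adjusted p-values of these 5 were between 0.196 and 0.79. The highest value was that of Ndufaf4, a factor that builds the Q module, at 0.20 (adjusted p = 0.296), with 23.9, 23.9 and 25.23 TPM in RT WT and 25.17, 30.3 and 28.8 TPM in RT Txnip-/-. The highest WT library was just above the lowest knockout library. The libraries did not overlap for 5 members that were higher and 11 that were lower in RT Txnip-/-, where 15.1% and 7.58% of all genes did so.

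At TN, the same comparison asked for the effect of Txnip loss when the need to make heat is small. Ndufv1 and Ndufaf4 were lower in TN Txnip-/- and no member was higher, with 2 of 46 called lower. Of all 12891 genes tested, 2.17% were lower and 6.49% higher, so that the members' share of lower calls was near the background. More members leaned downward, with 39 of 46 below 0 against 48.1% of all genes and a median log2 fold change of -0.09 against 0.008. All 7 core subunits (median -0.15) and all 8 assembly factors (median -0.19) were below 0. The libraries did not overlap for 20 members that were lower and for 0 that were higher, where 13.4% and 17.7% of all genes did so. The summed level of brown adipocyte markers was lower and those of macrophage and fibroblast markers were higher in TN Txnip-/- than in TN WT, as given above, and their part in these values was not tested.

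Ndufv1 measured 934, 910 and 855 TPM in TN WT and 682, 729 and 692 TPM in TN Txnip-/-. The groups stood apart, with a fold change of 0.779 (log2 -0.36, SE 0.071, adjusted p = 0.0218). Ndufaf4 measured 20.5, 21.1 and 24.8 TPM in TN WT and 15.9, 13.5 and 17.0 TPM in TN Txnip-/-. Its fold change was 0.699 (log2 -0.49, SE 0.105, adjusted p = 0.0281), and again no library overlapped. Both calls were close to the threshold and depended on single libraries. Neither gene was called without TN Txnip-/- replicate 1 (adjusted p = 0.096 for Ndufv1 and 0.0801 for Ndufaf4) or without TN Txnip-/- replicate 2 (0.0559 and 0.0794). The Ndufv1 call was also lost without TN WT replicate 1 (0.0505), TN WT replicate 2 (0.0611) or TN Txnip-/- replicate 3 (0.0543), and the Ndufaf4 call without TN WT replicate 2 (0.0571) or TN WT replicate 3 (0.0784). The log2 fold changes stayed between -0.40 and -0.33 for Ndufv1 and between -0.56 and -0.40 for Ndufaf4 in all of these. Ndufv1 was also not called with the replicate block (adjusted p = 0.0664) or, being inside the fold limit, with the authors' log2 values (log2 -0.28), and with no filter on low values neither gene was called (adjusted p = 0.0806 for Ndufv1 and 0.0647 for Ndufaf4).

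Of the other assembly factors, Ndufaf6, needed early in assembly, measured 25.3, 23.0 and 26.3 TPM in TN WT and 20.3, 19.8 and 20.7 TPM in TN Txnip-/-. The groups stood apart, and its log2 fold change of -0.28 passed the p threshold (adjusted p = 0.0454) but not the fold limit, as 3 members did without that limit against 2.68% of all genes. Its adjusted p was between 0.0793 and 0.135 without any 1 of the 6 libraries, except TN WT replicate 2, without which it was called (0.0454), and was 0.07 with the replicate block. Ndufaf1, which acts in the complex that builds the membrane arm, was at -0.28 (adjusted p = 0.0731), and it was called without TN Txnip-/- replicate 3 (-0.36, adjusted p = 0.0402). Ndufaf2, a chaperone for the joining of the N module, was at -0.30 (adjusted p = 0.0886). Ndufaf3, the partner of Ndufaf4, was at -0.07, Ndufaf7, a methyltransferase, at -0.09, Ndufaf5, which modifies Ndufs7, at -0.04 and its partner Ndufaf8 at -0.01, with adjusted p-values between 0.394 and 0.961. Of the 8 assembly factors, 4 had an unadjusted p under 0.05 (Ndufaf1, Ndufaf2, Ndufaf4 and Ndufaf6), as did 13 of all 46 members and 25.6% of all genes.

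Of other core subunits at TN, log2 fold changes were -0.25 for Ndufs1, -0.14 for Ndufs3, -0.11 for Ndufs7, -0.25 for Ndufs8 and -0.15 for Ndufv2, none of which passed the test (adjusted p between 0.0629 and 0.412). Among the accessory subunits none was called. Their highest value, that of the membrane subunit Ndufa3, was 0.10 (adjusted p = 0.565), with 625, 569 and 586 TPM in TN WT and 610, 720 and 584 TPM in TN Txnip-/-. These groups overlapped. By part of the enzyme, the median was -0.08 for the 8 N-module genes, -0.11 for the 8 genes of the Q module and its neighbours, -0.06 for the 9 of the proximal arm and -0.10 for the 11 of the distal arm. The 95% interval lay within the fold limits for 33 of the 46 members.

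**Figure D2:**
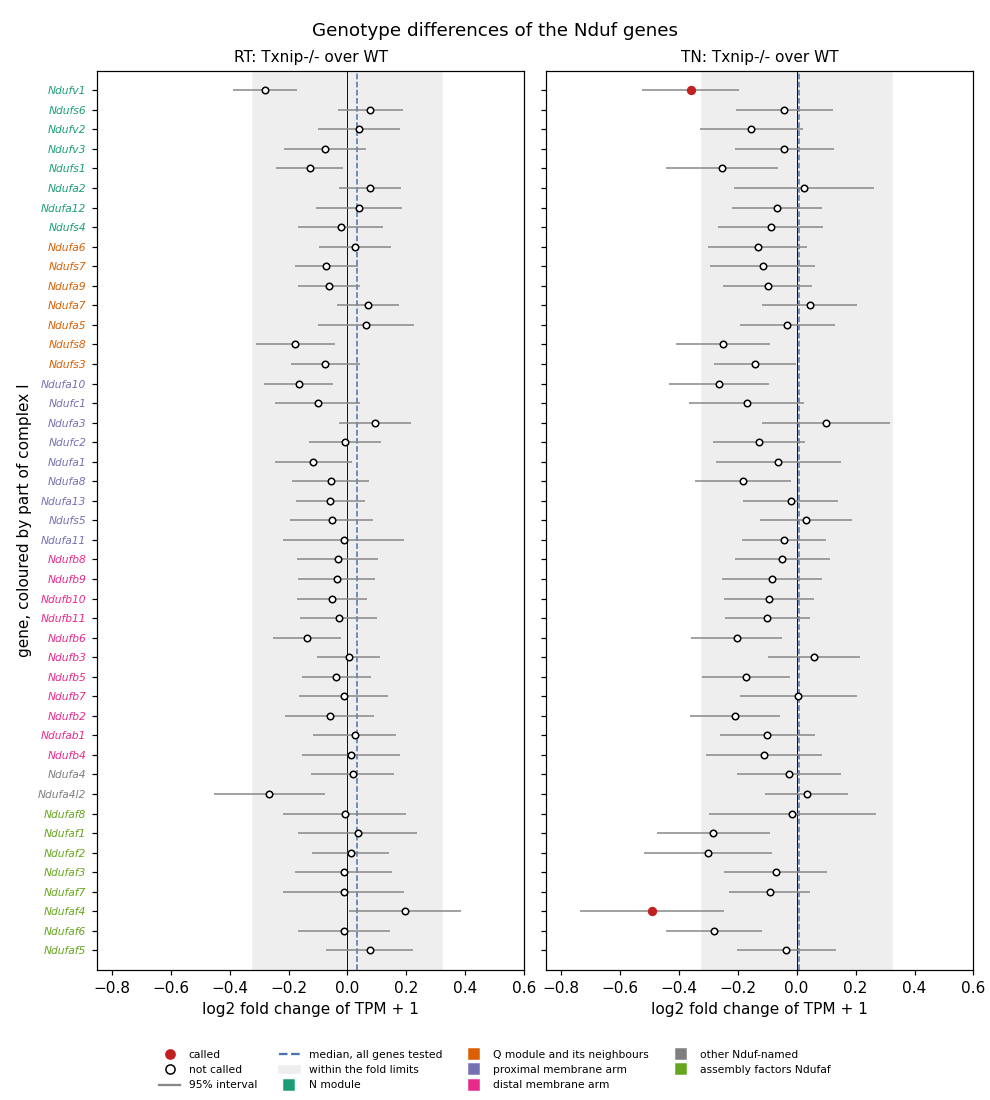
Log2 fold change of TPM + 1 in Txnip-/- over WT with its 95% interval for 45 of the 46 tested Nduf genes at RT (left) and TN (right), with the grey band marking the fold limits and the dashed line the median of all genes tested. At TN most points lie below 0, and Ndufv1 and Ndufaf4 are called.

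TN was next compared with RT within each genotype, which asked how complex I transcripts follow housing temperature. The sources used here do not say whether RT and TN libraries were prepared together. A difference in preparation could not be told apart from temperature. TPM are shares of a total, and the median log2 change of all genes between RT and TN was 0.18 in WT and 0.15 in Txnip-/-, so each change is best read against that median. In WT, 0 of 46 members were called lower (6.39% of all 12486 genes) and Ndufa4l2 alone was called higher (31.4% of all genes). Without the fold limit 11 members were lower and 5 higher, against 9.87% and 40.4% of all genes. The median of the members was -0.11, which is 0.29 below that of all genes, and 32 of 46 were below 0, against 28.8% of all genes. The RT and TN libraries did not overlap for 21 members that were lower and 7 that were higher at TN, against 12% and 45.5% of all genes.

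In Txnip-/-, 7 members fell at TN and Ndufa4l2 rose, where 8.27% and 30.9% of all genes did so. The genes that fell were the assembly factors Ndufaf4, Ndufaf2 and Ndufaf1, the core subunits Ndufs8 and Ndufv2, and Ndufb6 and Ndufb5 of the distal arm. Without the fold limit 22 were lower and 4 higher, against 13.5% and 37.9% of all genes. The median was -0.17, which is 0.32 below that of all genes, and 37 of 46 were below 0, against 33.7% of all genes. All 5 tested skeletal muscle markers also fell in Txnip-/- (log2 -0.80 to -2.04), the sum over 8 being 17.99 to 43.7 TPM at RT and 2.95 to 14.5 at TN, while in WT 0 of the 5 were called by limma and 0 had an unadjusted p under 0.05. Their part in these falls was not tested. The libraries did not overlap for 25 members that were lower and 6 that were higher, against 16.9% and 44.1% of all genes. The temperature comparisons share libraries with those of the genotypes and are given side by side.

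Ndufaf4 had the largest fall. It went from 25.17, 30.3 and 28.8 TPM in RT Txnip-/- to 15.9, 13.5 and 17.0 TPM in TN Txnip-/-, a fold change of 0.551 (log2 -0.82, SE 0.098, adjusted p = 6.3e-05). In WT it went from 23.9, 23.9 and 25.23 TPM to 20.5, 21.1 and 24.8 TPM, where the libraries overlapped (log2 -0.14, adjusted p = 0.266). Ndufaf2 went from 44.6, 46.9 and 44.8 TPM to 29.0, 30.7 and 34.6 TPM in Txnip-/- (log2 -0.52, SE 0.078, adjusted p = 0.000259). In WT it went from 46.3, 45.4 and 43.6 TPM to 35.3, 38.8 and 42.7 TPM (log2 -0.21, adjusted p = 0.0419), within the fold limits. Neither pair of groups overlapped. Ndufaf2 shares 1955 exon bases (65.6%) with B230220B15Rik on the opposite strand, and the strand used in counting is not given in the sources used here. Ndufaf1 was at -0.44 in Txnip-/- (adjusted p = 0.00156) and at -0.12 in WT (adjusted p = 0.274).

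The remaining assembly factors went in different directions with temperature. Ndufaf3 was higher at TN in WT (0.25, adjusted p = 0.0139) and in Txnip-/- (0.19, adjusted p = 0.0442), inside the fold limits, and neither difference held when each library was centred on its median (0.063, adjusted p = 0.559, and -0.00086, adjusted p = 0.994). Ndufaf6 was at 0.17 in WT (adjusted p = 0.0478), a sign that turned with that centring, and at -0.10 in Txnip-/- (adjusted p = 0.196). Ndufaf7 was at -0.16 in WT and at -0.24 in Txnip-/- (adjusted p = 0.0876 and 0.0169). Ndufaf5 was at 0.12 and 0.00 and Ndufaf8 at 0.09 and 0.09, none of which passed the test.

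Ndufb6, an accessory subunit of the distal arm, had the lowest value in WT. It went from 702, 687 and 713 TPM in RT WT to 578, 538 and 572 TPM in TN WT (log2 -0.32, SE 0.052, adjusted p = 0.000709), just inside the fold limit. In Txnip-/- it went from 620, 664 and 627 TPM to 473, 498 and 495 TPM and was called (log2 -0.38, SE 0.052, adjusted p = 0.000142). All 6 TN libraries were below all 6 RT libraries. Without RT WT replicate 2, TN WT replicate 1 or TN WT replicate 3 it was also called in WT, so that WT then had 1 member lower. Ndufb6 shares 257 exon bases (39.0%) with Smim27 on the opposite strand. Ndufs8 went from 516, 481 and 514 TPM to 427, 391 and 418 TPM in WT (log2 -0.29, adjusted p = 0.00238). In Txnip-/- it went from 443, 468 and 425 TPM to 351, 330 and 358 TPM (log2 -0.36, SE 0.060, adjusted p = 0.000483). Each pair of groups stood apart.

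Ndufb5 was at -0.34 in Txnip-/- (adjusted p = 0.000255) and Ndufv2 at -0.32 (adjusted p = 0.00166). Both were close to the fold limit and neither was called without RT Txnip-/- replicate 2 or without TN Txnip-/- replicate 2, which left 5 members called lower. In WT they were at -0.21 (adjusted p = 0.00609) and -0.13 (adjusted p = 0.115). Ndufb5 shares 616 exon bases (12.3%) with Mrpl47 on the opposite strand. Other core subunits in WT and in Txnip-/- were at -0.12 and -0.20 for Ndufv1, at -0.11 and -0.23 for Ndufs1 and at -0.11 and -0.17 for Ndufs3. Ndufs7 went the other way, at 0.19 in WT and 0.15 in Txnip-/- (adjusted p = 0.0166 and 0.0487), values that became 0.0098 and -0.04 when libraries were centred.

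**Figure D3:**
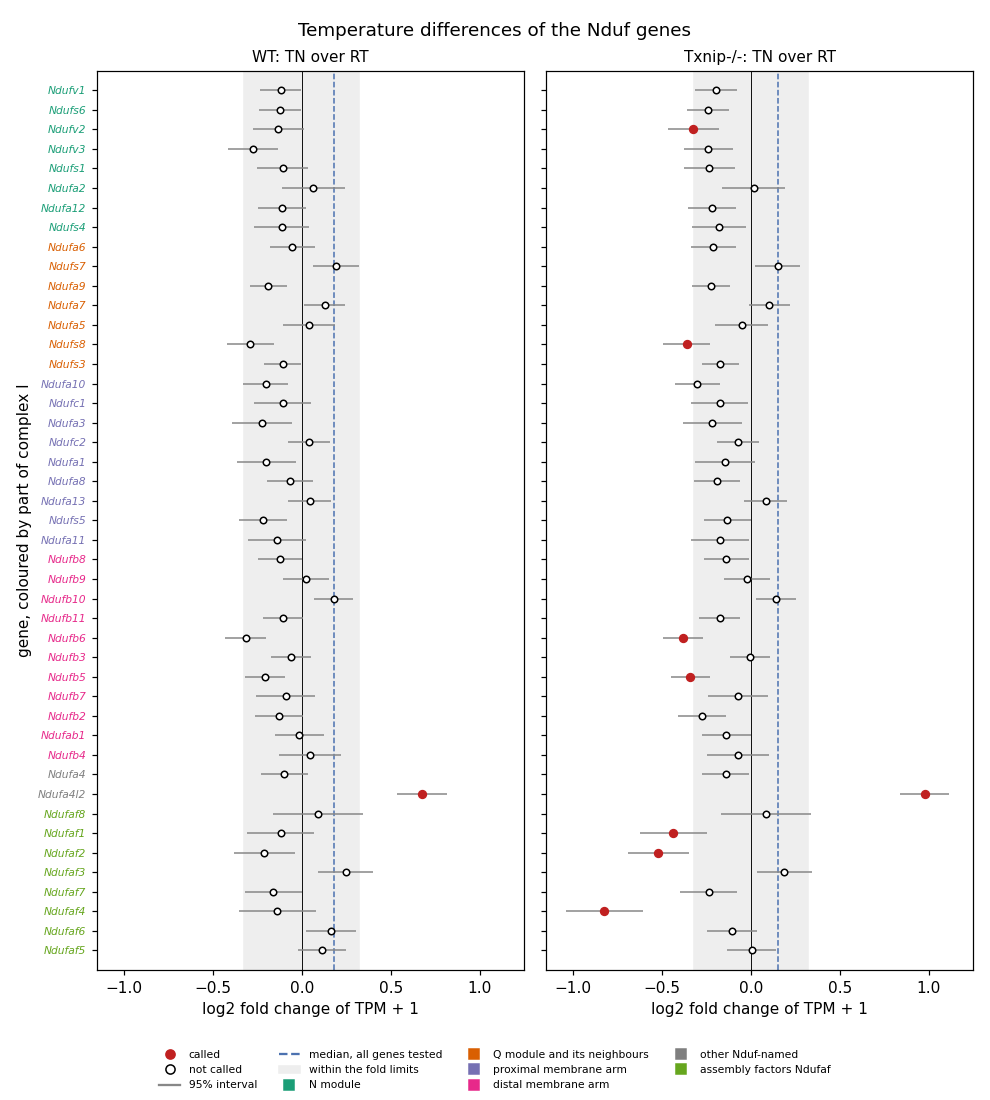
Log2 fold change of TPM + 1 at TN over RT with its 95% interval for 45 of the 46 tested Nduf genes in WT (left) and Txnip-/- (right), with the grey band marking the fold limits and the dashed line the median of all genes tested. Ndufa4l2 lies at 0.68 and 0.98, while most members lie below the dashed line at 0.18 and 0.15.

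Ndufa4l2, known to restrain complex I activity in hypoxic cells, was the member called higher at TN. It measured 10.8, 10.7 and 11.3 TPM in RT WT and 17.8, 18.3 and 18.05 TPM in TN WT (log2 0.68, SE 0.064, adjusted p = 4.59e-05). In Txnip-/- it went from 8.79, 8.31 and 9.72 TPM to 18.2, 19.0 and 18.4 TPM (log2 0.98, adjusted p = 6.64e-06). Every TN library was above every RT library, and it remained called with each library centred on its median, at 0.49 and 0.79. The genotypes stood apart at RT, where all 3 RT Txnip-/- libraries were lower (log2 -0.27, adjusted p = 0.176), and not at TN (log2 0.03, adjusted p = 0.781). The summed levels of macrophage, fibroblast, lymphocyte and endothelial markers were also higher at TN than at RT in both genotypes, the endothelial sum at 231 to 248 TPM and then 282 to 353 in WT and at 197 to 236 and then 316 to 352 in Txnip-/-. Their part in this rise was not tested.

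**Figure D4:**
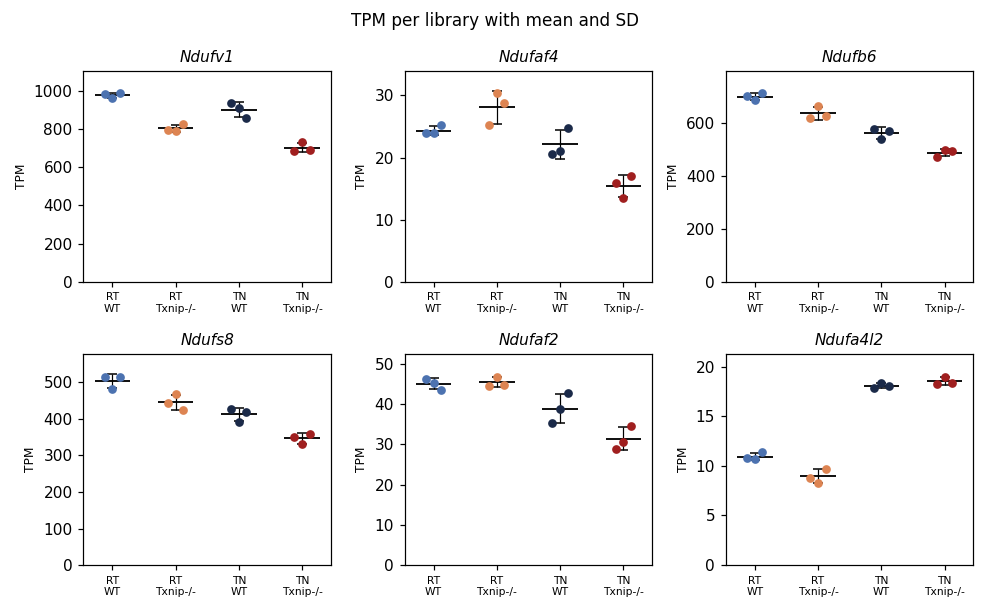
TPM per library of 6 Nduf genes in the 4 groups, with points for single libraries and lines for the mean and SD (n = 3), on axes that start at 0. Ndufaf4 is lowest in TN Txnip-/- at 13.5 to 17.0 TPM, and Ndufa4l2 is at 17.8 to 19.0 TPM in the TN libraries of both genotypes.

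The number of members called with temperature depended on the scaling. With TPM scaled to the upper quartile of each library, 4 members were lower in WT and 10 in Txnip-/-. With each library centred on its median, 13 were lower in WT and 28 in Txnip-/-. Over all genes, the calls higher and lower went from 3919 and 798 to 2867 and 1205 with upper-quartile scaling and to 1926 and 1841 with centring in WT. In Txnip-/- they went from 3858 and 1033 to 3207 and 1455 and to 2294 and 2435. All 7 genes called lower in Txnip-/- remained called under both scalings. These moved the median change of all genes in Txnip-/- down, from 0.15 to 0.08 and to -0.04. They could therefore hardly undo a lower call. The summed level of the 9 brown adipocyte markers was lower at TN than at RT in both genotypes. Of these genes, 5 fell in WT and 7 in Txnip-/-, where 6.39% and 8.27% of all genes did so. Zic1, a transcription factor of the brown lineage, rose in both (0.57, adjusted p = 0.00248, and 0.48, adjusted p = 0.00552), as did 31.4% of all genes in WT and 30.9% in Txnip-/-. The part of the brown adipocyte markers in the lower members was not tested.

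**Figure D5:**
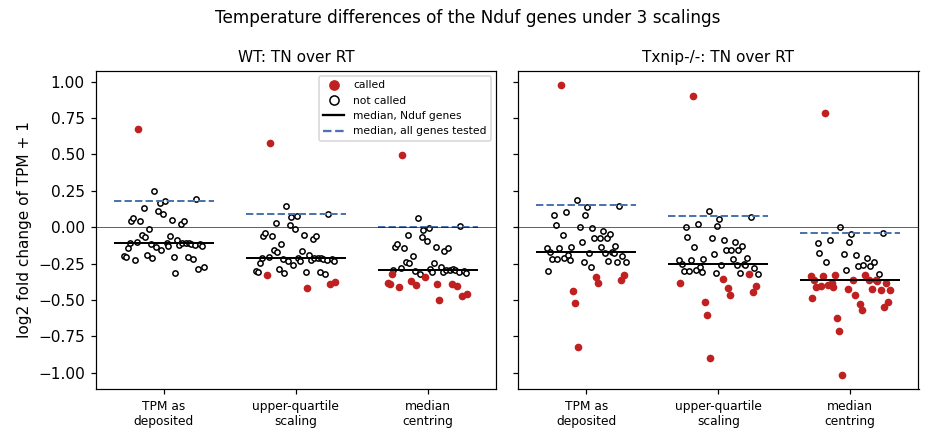
Log2 fold change of TPM + 1 at TN over RT for the 46 tested Nduf genes under 3 scalings in WT (left) and Txnip-/- (right), with filled points for called genes, solid lines for the median of the members and dashed lines for the median of all genes tested. The members' median moves from -0.11 to -0.29 in WT and from -0.17 to -0.36 in Txnip-/-. Each scaling shifts all genes of a library by nearly the same amount, so the distance between the solid and dashed lines could hardly change.

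Whether the genotype effect differed between temperatures was tested as an interaction over all 12 libraries. None of the 46 members passed, and 1 gene of 12486 did (0.00801%). An unadjusted p under 0.05 was found for 5 members (12.6% of all genes), namely Ndufaf4, Ndufa4l2, Ndufaf6, Ndufaf2 and Ndufaf1. The smallest p was that of Ndufaf4, with a log2 difference of -0.69 (SE 0.139, adjusted p = 0.115), followed by Ndufa4l2 at 0.30 (SE 0.090, adjusted p = 0.233). All 8 assembly factors were below 0 (median -0.19), as were 29 of the 38 subunit-named genes (median -0.07). The median over the 46 was -0.07, against -0.02 over all genes, and with 1 library left out it was between -0.09 and -0.03. The smallest size was that without RT Txnip-/- replicate 2, and without RT WT replicate 2 it was -0.04. A difference between temperatures in the genotype effect on complex I genes was therefore not detected here, and the adjusted p of Ndufaf4 was between 0.0724 and 0.253 under the alternatives.

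Other complex I assembly genes do not carry the Nduf name. Of 11 tested, limma called 0 at RT (1.49% of all genes), where 1 had an unadjusted p under 0.05 (16% of all genes). At TN, Tmem70, known for the assembly of ATP synthase and complex I, and Aifm1, a flavoprotein of the intermembrane space needed for complex I biogenesis, were lower in Txnip-/- (log2 -0.36 each, adjusted p = 0.0271 and 0.0201), where 2.17% of all genes were lower, and the median was -0.15. From RT to TN, 5 of the 11 fell in Txnip-/-, namely Tmem70 (-0.53), Aifm1 (-0.45), Tmem186 (-0.44), Foxred1 (-0.40) and Timmdc1 (-0.36), where 8.27% of all genes fell. In WT, Tmem186 fell (-0.40, adjusted p = 0.00468) and Dmac2 rose (0.48, adjusted p = 0.000279), where 6.39% of all genes fell and 31.4% rose.

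The neighbouring complexes, which receive electrons from succinate and from ubiquinol, had no gene called between genotypes by limma, although 7 of their 13 genes at RT and 6 at TN had an unadjusted p under 0.05, against 16% and 25.6% of all genes. The median log2 fold change at TN was -0.19 for the 4 genes of complex II and -0.20 for the 9 of complex III. From RT to TN, the complex III genes Uqcrfs1 and Uqcrq fell in WT, and 6 of 9 fell in Txnip-/-, against 6.39% and 8.27% of all genes. Sdhd of complex II also fell in Txnip-/- (-0.34, adjusted p = 0.0013). Of 7 genes taken as a measure of mitochondrial content, 0 were called between genotypes by limma, where 1.49% of all genes were called at RT and 2.17% lower and 6.49% higher at TN, with an unadjusted p under 0.05 for 2 at RT and 3 at TN. Their summed level was nevertheless lower in Txnip-/- with no overlap, at 2188 to 2287 against 2371 to 2489 TPM at RT and at 1817 to 2063 against 2172 to 2429 TPM at TN. Cs held most of this sum in RT WT, at 1300 to 1390 TPM. At RT the log2 fold changes were -0.18 for Cs, -0.22 for Immt and -0.01 for Hspd1. Those of Tomm20 (0.11), Tfam (0.07), Vdac1 (0.05) and Timm23 (0.005) were above 0. At TN, Tomm20 (0.07) and Vdac1 (0.06) were above 0 and the others below. The sum of the 4 complex II genes was also lower in Txnip-/- with no overlap, at 4158 to 4301 against 4494 to 4660 TPM at RT and at 3600 to 3802 against 4145 to 4422 TPM at TN. That of the 9 complex III genes overlapped at RT, at 8586 to 9312 against 9156 to 9761 TPM. At TN it was lower with no overlap, at 6926 to 7192 against 7829 to 8172 TPM. Timm23, a subunit of the import channel, fell from RT to TN in Txnip-/- (-0.54, adjusted p = 5.78e-05). The part of these levels in the values of the Nduf genes was not tested.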

How the data were processed

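RNA of interscapular BAT was selected for poly-A, and 12 libraries were sequenced, 3 per group. The authors aligned reads to mm10 with STAR 2.7.5a, counted them on exons with HOMER 4.11.1, kept 1 transcript per gene and deposited TPM for all 12 libraries. The deposited log2 values of each temperature, normalized by the authors with a transform that is not named, served as an alternative, and 10 of the 48 members have another transcript there. The deposited fold changes and p-values of the authors' DESeq2 comparison were not used. The planned tests on log2(TPM + 1) were run with limma 3.58.1 in R 4.3.3, with moderation along a mean-variance trend and p-values adjusted after Benjamini and Hochberg over all genes with a mean of at least 1 TPM. Genotypes were compared on the 6 libraries of each temperature, and temperatures and the interaction on all 12 with 4 group means. A call needed a log2 fold change above 0.32 or below -0.32 (a fold below 0.8) and an adjusted p under 0.05, and for the interaction the latter. The fits were tested on simulated data. Listed genes held from 55.38% to 57.55% of the TPM scale in each library, and TPM give no counting error. Named with values are the members called in a comparison, its highest and lowest member, the 3 most abundant members, those below the filter, the 2 with the smallest interaction p, the nuclear core subunits and the 8 assembly factors, apart from 1 gene that is counted in the totals and not reported here. Other assembly, complex II, complex III, mitochondrial and marker genes came from lists. The members and lists were chosen with earlier results of these data known. Alternatives were a pseudocount of 0.1, no filter, 2 other scalings, the replicate block, other fits, the log2 values, no minimum fold and leaving out each library. Figures were drawn with matplotlib 3.10.9.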

Additional observations from a re-analysis of the deposited data

How the results depend on the processing

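With no minimum fold, RT Txnip-/- against WT had 1 member lower, WT had 11 lower and 5 higher at TN, and Txnip-/- had 22 lower and 4 higher at TN. The count of members lower in TN Txnip-/- than in TN WT was 0 with no filter on low values, where more genes were tested, and 1 (Ndufaf4) with the authors' log2 values or the replicate block. With each library left out in turn it was between 0 and 2, and for TN against RT the count of lower members was between 0 and 1 in WT. With upper-quartile scaling and with median centring, WT had 4 and 13 members lower at TN with medians of -0.21 and -0.29, and the median in Txnip-/- was -0.25 and -0.36, with 28 members lower under centring. Centring also turned Ndufaf6 in WT (-0.0161) and Ndufs7 (-0.0396) and Ndufaf3 (-0.00086) in Txnip-/- below 0. For single genes, 342 values kept direction and side of the threshold, 14 newly passed it and 17 no longer did. Same-numbered libraries of the genotypes had deviations correlated at 0.297, -0.022 and 0.21 at RT and 0.042, 0.023 and -0.036 at TN, so the numbers were not taken to pair the libraries, and the replicate block moved no other count of called members by over 1.5 times. With 3 libraries per group the spread between libraries limits what can be called.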
